A study of Mus musculus with 3 samples.

Results

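The cells described here were mouse embryonic stem cells in which Mll1 had been deleted, one of 3 cell types placed together on each of 3 nanowell plates. A well counted as a member when its plate report gave it the Mll1-deleted type, at least 1000 genes were detected in it and less than 20% of its unique molecular identifiers (UMIs, the tags that mark single captured RNA molecules) came from the mitochondrial genome. Of 1404 deleted wells in the reports, 43 had under 1000 genes and 51 more failed only on the mitochondrial limit, which left 1310 of the 4413 wells kept in all. They lay as 414 wells on plate 1, 354 on plate 2 and 542 on plate 3. The other kept wells were 1513 of the control type and 1590 of the inhibited type. All 3 types came from a blastocyst-derived line of C57BL/6J background, with the strain label Mll1fl/fl; Cre-ER TM, so that the control also carried the loxP-flanked allele and the inducible recombinase. By the labels the types were Mll1fl/fl cells (control), Mll1-/- cells and cells with Mll1 inhibition. The compound, its dose, the length of either treatment and the deleted exons are not given in the sources used here. Nothing in the labels says that the plates held separate cultures, so the spread between plates may be technical.

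Mll1, whose gene symbol is Kmt2a, is a histone methyltransferase that marks lysine residues on histone H3 at promoters, and it works in a complex with the subunits Wdr5, Rbbp5, Ash2l and Dpy30. Embryonic stem cells derive from the inner cell mass of the blastocyst, and in culture they are a mixed population: naive pluripotency genes such as Dppa5a switch between high and low expression, and rare cells express genes of the embryo at its earliest cleavage. Keratins 8 and 18 form the filaments of simple epithelia, and they are among the first filament proteins of the trophectoderm, the outer layer of the blastocyst.

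The deleted libraries held 29336380, 38462614 and 37733965 gene UMIs on plates 1 to 3. Per well the median was 39658.5, 58507 and 23555.5 UMIs and 4084, 4455 and 3334 genes, and single wells ran from 1611 to 771880 UMIs. To compare wells at equal depth, each was thinned at random to 10000 UMIs, a depth that 336, 304 and 369 deleted wells reached and 301 did not; levels below are thinned UMIs per well unless stated otherwise. The 15 wells without cells had a median of 165 UMIs, with 0 of Krt18, 3 of Krt8 and 0 of Pou5f1 among their 2719 UMIs in all. Of 1195 distinct well barcodes among deleted wells, 115 occurred on more than 1 plate, and 658 deleted wells carried a barcode that another kept well also carried. The 89 pairs of deleted wells with the same barcode on different plates had a median Spearman correlation of 0.406 between their profiles, beside 0.390 in 338215 other pairs from different plates.

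Kmt2a (chromosome 9, 44803355 to 44881296, minus strand, mm10) was still counted in the deleted wells. Its mean was 0.682, 0.572 and 0.64 UMIs per well on plates 1 to 3, beside 0.573, 0.533 and 0.517 in control wells. At least 1 Kmt2a UMI was found in 31.0%, 28.0% and 27.1% of deleted wells and in 26.4%, 24.8% and 27.6% of control wells. Before thinning the deleted shares were 48.8%, 45.5% and 36.3%. A count over the whole gene does not read the deleted exons apart, so these values check neither the deletion nor the labels.

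The pluripotency markers were present in the population and thinly counted in each well. Pou5f1, a core pluripotency factor, was seen in 44.0%, 37.8% and 38.8% of deleted wells at 10000 UMIs and in 76.3%, 73.4% and 65.3% before thinning. Sox2, its partner on DNA, was seen in 52.4%, 48.7% and 53.7%. Of 11 core pluripotency genes the median deleted well showed 5 on each plate, and 2, 3 and 1 wells showed none. The summed fibroblast, blood and mesoderm lists were near 0, and the primitive endoderm and basement membrane list and the neural list were not. The summed fibroblast and feeder list had at least 1 UMI in 14 of 336, 13 of 304 and 15 of 369 wells, with at most 3, 5 and 5 UMIs in a well. The blood and endothelial list had at least 1 UMI in 10, 6 and 5 wells (at most 4, 2 and 2 UMIs), and the mesoderm list in 19, 16 and 21 wells (at most 5, 4 and 3). The neural list had at least 1 UMI in 136, 104 and 120 wells (at most 18, 19 and 16), beside 222 of 527, 189 of 471 and 113 of 286 control wells. In a well with most of this list on plates 1 to 3, Nes gave 17, 19 and 16 of the UMIs. Another plate 3 well with 16 UMIs held 13 of Sox1 and 3 of Nes. The primitive endoderm and basement membrane list had at least 1 UMI in 303, 271 and 322 wells (at most 54, 107 and 37). In the highest well of each plate all of these came from Sparc, Serpinh1 and the laminin and collagen genes of the list. A summed list does not by itself show a cell identity. The remaining markers, Krt8 and Anxa2, were seen in 50.3%, 43.1% and 60.7% of wells and in 44.9%, 45.4% and 50.7% of wells.

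Well-to-well variation was measured by the Fano factor, the variance of thinned UMIs over wells divided by their mean, which is close to 1 for counts that scatter only by sampling. Since it climbs with the mean, the log2 Fano factor of each gene was set against the running median of the genes nearest in mean in the same library, and the difference is called the variability excess. An excess of 1 means a Fano factor 2 times that of genes of like level. Of 7662 genes with a mean of at least 0.1 UMIs over the 9 libraries, 49 reached an excess of 1 in the deleted wells on every plate, a background of 0.64%. The share was 0.757% in control wells and 0.731% in inhibited wells. Of the 49 genes, 35 had a mean of at least 1 UMI over the deleted libraries, among 1829 such genes tested. Single plates gave 314, 370 and 364 such genes, and 711 genes reached the limit on exactly 1 plate. Just inside the limit, by the lowest plate, lay Arl5c, H19 and Apoe at 1.03, 1.02 and 1.01, and just outside lay Gsto1, Eif4ebp1 and Anxa1 at 0.996, 0.97 and 0.96. Of the 49 genes, 37 also passed in control wells (75.5% of the deleted list and 63.8% of the control list of 58), and 33 also passed in inhibited wells (67.3% of the deleted list and 58.9% of the inhibited list of 56). The types were not tested against each other by these counts.

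**Figure D1:**
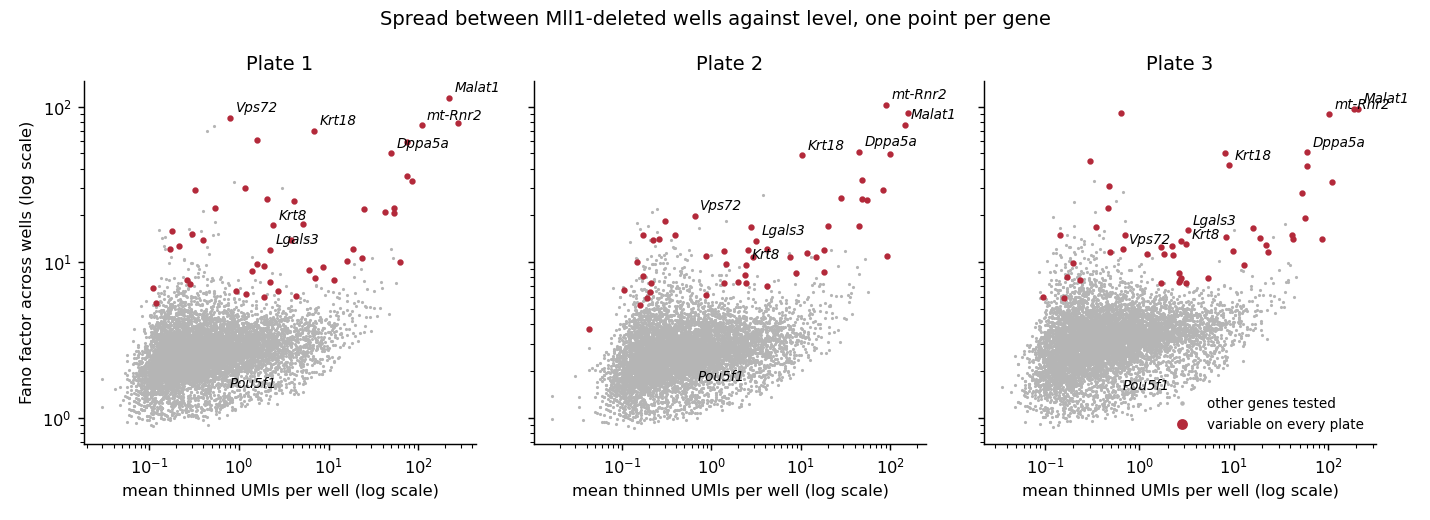
Fano factor over wells (vertical axis) against mean thinned UMIs per well (horizontal axis), both logarithmic, for each tested gene in the deleted wells of plates 1, 2 and 3; red points are the 49 genes variable on every plate and grey points the others. Krt18 lies at a Fano factor of 69.9, 48.6 and 42.0 with a mean of 6.93, 10.3 and 8.89, far above grey points of like mean, whereas Pou5f1 lies at the lower edge on each plate.

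The genes that varied most fell into a few kinds. First by the lowest of the 3 plates were 2 noncoding RNAs that were abundant in every well. Gm42418 had a mean of 279, 159 and 189 UMIs, with an excess of 4.43 ± 0.09 (SD, n = 3 plates). Its level correlated with the mitochondrial share of the well at r of 0.27, 0.47 and 0.27. With log10 UMIs before thinning r was 0.20, -8.1e-05 and 0.42. The technical part of its spread was not tested. Malat1, a nuclear RNA, had a mean of 223, 149 and 208 UMIs, with an excess of 4.53 ± 0.34. Gm42418, Malat1, mt-Rnr2 and Dppa5a are among the abundant genes that shared 1 running median, so their ranks were not set at like level. Of the 14 mitochondrial genes tested 8 passed, led by the large ribosomal RNA mt-Rnr2. Dppa5a, a naive pluripotency gene, was the fourth of all genes and Krt18 was the fifth. A further kind was seen in few wells. Gm26707 had a UMI in 15.5%, 3.62% and 8.94% of wells and up to 141 UMIs in one of them, and Myom2, a muscle M-band protein, had a UMI in 5.36%, 2.96% and 3.52% of wells with up to 52. C730034F03Rik was similar, with a UMI in 6.55%, 3.62% and 5.42% of wells and at most 40 UMIs in a well. Gm10800 had a mean of 4.12, 2.75 and 2.24 UMIs and up to 98 in a well. The least variable genes with a mean of at least 1 were processed pseudogenes or predicted genes, Rps19-ps3 (excess -1.31 ± 0.07), Rpl3-ps2 (-1.22 ± 0.11), Rps19-ps2 (-1.30 ± 0.19), Gm9703 (-1.13 ± 0.07) and Gm12174 (-1.16 ± 0.07). Such copies can share reads with their parent genes, so their levels are uncertain.

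Krt8 had the highest excess of the 4 markers as a mean over plates, although Anxa2 was higher on plate 2 (1.98 against 1.74), and its filament partner Krt18 had a higher mean. Krt8 (chromosome 15, 101996698 to 102004482, minus strand) and Krt18 (chromosome 15, 102028180 to 102032027, plus strand) are neighbours that point away from each other, with 23697 bases between them. The DNA upstream of their RefSeq starts is shown because their counts were correlated from well to well. That of Lgals3 and Anxa2, which correlated with them, is shown beside it. The Lgals3 window lies inside the GENCODE M21 span of that gene (chromosome 14, 47367751 to 47386160, plus strand). That span begins further upstream than the RefSeq start. Each line gives 100 bases, from 250 to 151 bases before the RefSeq start (GRCm38.p6), 5′ to 3′ on the gene's strand, where no annotated exon lies. Capitals mark matches on either strand to the AP-1 motif TGANTCA, the TEAD motif GGAATG or the GC box GGGCGG.
Krt8, chr15:102004493-102004592, minus strand: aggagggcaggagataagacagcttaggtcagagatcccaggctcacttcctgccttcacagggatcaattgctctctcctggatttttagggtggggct
Krt18, chr15:102027966-102028065, plus strand: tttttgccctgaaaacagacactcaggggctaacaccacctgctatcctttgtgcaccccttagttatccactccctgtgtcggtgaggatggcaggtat
Lgals3, chr14:47373610-47373709, plus strand: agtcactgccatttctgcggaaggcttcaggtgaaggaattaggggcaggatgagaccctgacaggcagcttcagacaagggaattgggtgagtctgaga
Anxa2, chr9:69453433-69453532, plus strand: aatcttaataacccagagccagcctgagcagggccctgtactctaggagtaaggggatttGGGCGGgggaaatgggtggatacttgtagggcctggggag
The only match in these 4 windows was 1 GC box before Anxa2. Among 32851 windows of the same length and place, 10.5% held a GC box, 5.28% the TEAD motif and 2.49% the AP-1 motif. A match is a run of letters, not a bound site.

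Krt18 was low in most deleted wells and very high in a few. Its median was 1, 2 and 2 UMIs on plates 1 to 3, its 90th percentile 16, 34 and 24, and its highest well 292, 161 and 174. At least 1 Krt18 UMI was found in 71.1%, 68.8% and 78.3% of wells, and the tenth of wells with most of it held 70.3%, 67.0% and 61.2% of its UMIs. Its excess was 3.84 ± 0.55 (SD, n = 3 plates), beside 4.20 ± 0.74 in control wells. Krt8 followed with means of 2.43, 2.45 and 3.14 UMIs, highest wells of 81, 30 and 55, and an excess of 2.05 ± 0.44 beside 2.45 ± 0.51 in control wells. Krt18 was also uneven in control wells, where single wells reached 102, 345 and 181 UMIs.

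**Figure D2:**
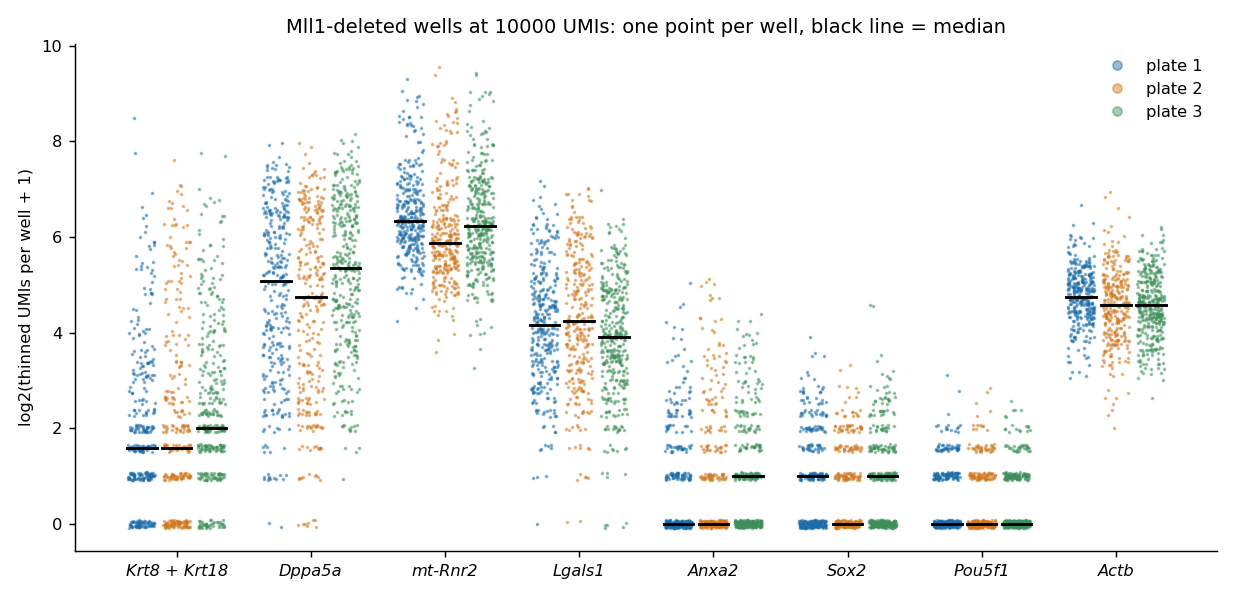
Thinned UMIs per well as log2(UMIs + 1) for the sum of Krt8 and Krt18 and for 7 single genes in the deleted wells that reached 10000 UMIs; each point is a well, coloured by plate and with small jitter on both axes, and the black line is the median. The keratin sum has medians of 2, 2 and 3 UMIs with single wells up to 373, while Dppa5a has medians of 33, 26 and 40 and fills a broad range.

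Genes outside the keratins were uneven to different degrees. Lgals3, the sugar-binding protein galectin-3, had a median of 0.5, 1 and 1 UMIs, highest wells of 60, 43 and 74, and an excess of 2.13 ± 0.06. Lgals1 was found in nearly every well, with a median of 17, 18 and 14 UMIs and highest wells of 139, 136 and 121. The tenth of wells with most of it held 32.7%, 32.4% and 29.8% of its UMIs, and its excess was 2.29 ± 0.58. Anxa2, a calcium-dependent membrane-binding protein, had an excess of 1.39 ± 0.61. By plate it was 1.41, 1.98 and 0.76, so that Anxa2 fell short of the limit on plate 3 only. Anxa1 was among the genes just outside the limit. In the list of annexins, S100 proteins and galectins, 2 of 12 tested members passed, and all 12 had an excess above 0, with a median of 0.44. Over all genes 49 of 7662 passed (0.64%), 4231 were above 0, and the median was 0.05. In the actin and contractile list 2 of 8 passed, Tagln (1.59 ± 0.26) and Tpm1 (1.43 ± 0.30), with a median of 0.87. Tagln encodes transgelin and Tpm1 a tropomyosin, which both bind actin filaments. Neither passed at a depth of 5000 UMIs, nor Tpm1 with a mitochondrial limit of 10%. In the trophectoderm list the keratin pair were the 2 of 10 that passed, and the list median was 0.33. Tead4, a transcription factor of the early trophectoderm, had an excess of 0.27 ± 0.09.

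The same genes were correlated with Krt18 over the wells of a plate. Correlations below are Pearson's r of log2(thinned UMIs + 1) over 336, 304 and 369 wells, which share a library, and they are given as description. Among 3187 other genes with a mean of at least 0.5 UMIs, 19 correlated with Krt18 at 0.3 or more on every plate. Krt8 led them, at 0.69, 0.78 and 0.63. Cryab, a small heat shock protein, followed at 0.49, 0.62 and 0.45. Anxa2 gave 0.51, 0.58 and 0.42, Lgals3 gave 0.39, 0.60 and 0.44, and Tagln gave 0.43, 0.55 and 0.45. In the other direction, 6 genes reached -0.3 or below on every plate. Mkrn1, an RNA-binding ubiquitin ligase, gave -0.52, -0.61 and -0.47, and Chchd10, a mitochondrial protein, gave -0.43, -0.51 and -0.45. The genes Mkrn1 and Chchd10 were named after their values were seen. The proliferation-linked genes Npm1, Hmgb2 and Hells were also among these 6. Krt18 showed almost no relation to the depth of the well before thinning (r of 0.02, 0.00 and -0.05 with log10 UMIs) or to its mitochondrial share (0.05, 0.05 and 0.13). In control wells Krt8 and Krt18 gave 0.73, 0.69 and 0.73, and Krt18 and Mkrn1 gave -0.51, -0.47 and -0.43, values of like size.

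**Figure D3:**
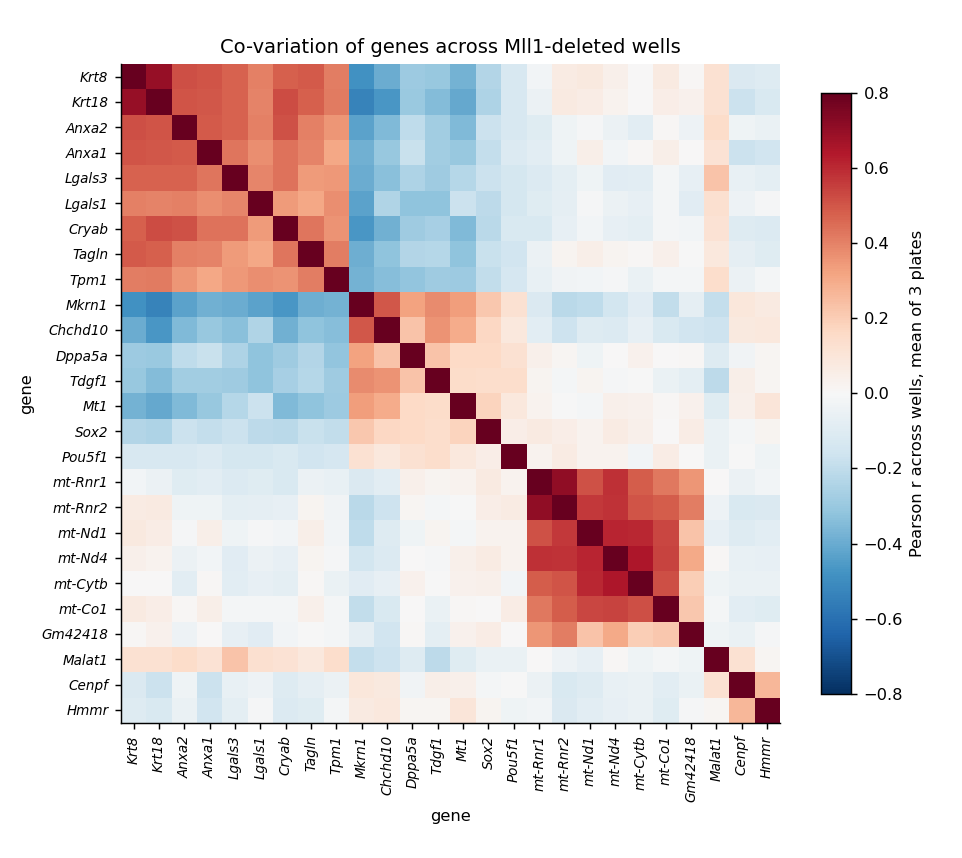
Pearson correlation between pairs of genes over deleted wells (log2 of thinned UMIs plus 1), as the mean of the 3 plates, coloured from blue (negative) to red (positive). The keratins, Anxa2, Anxa1, Lgals3, Lgals1, Cryab, Tagln and Tpm1 form 1 positive block, Mkrn1 and Chchd10 lie on the negative side of it, and the mitochondrial genes form another positive block.

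To show what high-keratin wells held, wells were ordered by the sum of Krt8 and Krt18. That sum was 0 in 64 of 336, 78 of 304 and 41 of 369 wells (19.05%, 25.7% and 11.1%, with exact 95% intervals of 14.99 to 23.7, 20.8 to 31.0 and 8.09 to 14.8 that cover counting error only). Wells above the 90th percentile of their plate (above 20.5, 44.4 and 31.2 UMIs) were set beside wells at or below the median (2, 2 and 3 UMIs). The upper range of 34, 31 and 37 wells held 68.2%, 65.0% and 58.1% of the keratin UMIs. It is a range of a continuous measure and not a cell type: 9, 6 and 16 wells lay within 5 UMIs of the limit. The values that follow are medians over the wells of each range, as description.

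Pluripotency genes were lower and cytoskeletal genes higher in the upper keratin range on each plate. The summed core pluripotency list had a median of 5, 4 and 7 UMIs in the upper range and 17, 18 and 17 in the lower. The naive list had 13, 13 and 18 against 50, 50.5 and 66. Most of the naive list's UMIs were Dppa5a, at 8, 9 and 15 against 43, 39.5 and 60. Of the core list, L1td1 had a mean of 2.71, 1.74 and 2.22 UMIs in the upper range against 7.02, 6.78 and 5.94 in the lower. Sox2 had a mean of 0.118, 0.258 and 0.757 against 1.74, 1.36 and 1.63. Pou5f1 had 0.441, 0.129 and 0.243 against 0.667, 0.698 and 0.712, with only 15, 4 and 9 UMIs in the upper range. Its correlation with Krt18 over all wells of a plate was weak, at -0.08, -0.17 and -0.15. Mkrn1 had a median of 3, 3 and 5 against 18, 20 and 26. The annexin, S100 and galectin list had 104.5, 119 and 81 against 25, 23 and 20, and the actin and contractile list 68, 70 and 58 against 33, 31 and 27. Basement membrane and primitive endoderm genes had 11, 12 and 9 against 3 on each plate. The p53 target list had 20, 16 and 15 against 11, 9 and 11.

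Replication genes were also lower in that range, and genes used by all cells were not. The summed S phase list had a median of 15.5, 18 and 18 UMIs against 30, 35.5 and 30. The G2 and mitosis list differed less, at 37.5, 36 and 43 against 52, 56.5 and 48. The 15 ubiquitous genes had 97, 103 and 93 against 88, 100.5 and 87. Wells of the upper and lower range had median depths before thinning of 69536.5 and 50921.5 UMIs on plate 1, 78558 and 84734.5 on plate 2, and 57784 and 61381 on plate 3. Their median mitochondrial shares were 3.37% and 4.02%, 3.31% and 3.75%, and 3.80% and 3.77%. The part of depth in these differences was not tested beyond the thinning.

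For 7 trophectoderm transcription factors the means over wells were set side by side in the 2 ranges, and all were low. In the upper range Cdx2 had 0.059, 0 and 0.054 UMIs per well, against 0.094, 0.037 and 0.052 in the lower. Eomes had 0.088, 0.129 and 0 against 0.083, 0.037 and 0.042, Hand1 had 0.059, 0.097 and 0 against 0.011, 0.025 and 0.063, and Elf5 had 0 in both ranges. Tead4 had 0.235, 0.516 and 0.189 against 0.156, 0.049 and 0.058, and Gata3 had 0.265, 0.226 and 0.270 against 0.139, 0.049 and 0.063, higher in the upper range on each plate. Tfap2c had 0.324, 0.097 and 0.081 against 0.128, 0.123 and 0.147. The upper range held 8, 16 and 7 UMIs of Tead4 and 9, 7 and 10 of Gata3 in all. Krt7, another simple-epithelium keratin, had a mean of 1.00, 1.94 and 1.95 UMIs there against 0.067, 0.037 and 0.068 in the lower range. Krt19 had 1.06, 0.935 and 1.81 against 0.217, 0.160 and 0.173. The wells are therefore called here by their leading genes, the keratins, and by no cell type.

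**Figure D4:**
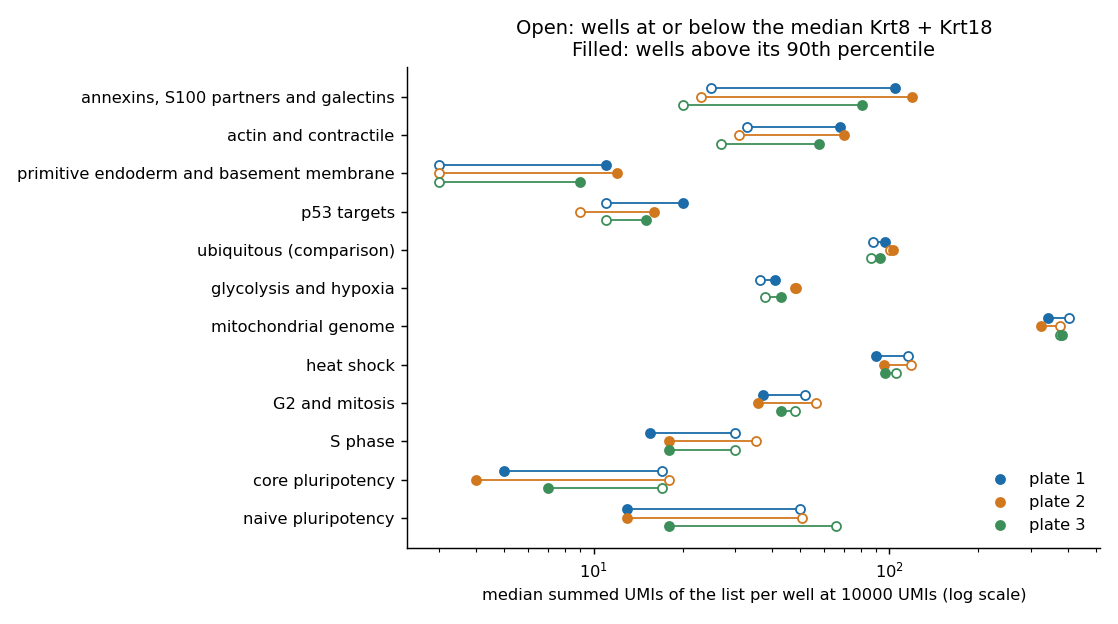
Median summed thinned UMIs of 12 gene lists per deleted well (logarithmic horizontal axis) in wells at or below the plate median of Krt8 plus Krt18 (open circles) and in wells above its 90th percentile (filled circles), 1 colour per plate. The annexin, S100 and galectin list lies higher in the upper range on each plate, at 104.5, 119 and 81 UMIs, and the core pluripotency list lies lower, at 5, 4 and 7.

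Dppa5a carried the widest spread among the pluripotency genes. It was found in 99.4%, 97.4% and 100% of deleted wells, with a median of 33, 26 and 40 UMIs, a 90th percentile of 126, 112 and 138 and highest wells of 262, 236 and 280. Its Fano factor was 50.3, 51.2 and 51.0, and its excess was 3.64 ± 0.15 beside 3.52 ± 0.08 in control wells. Its closest partner was Gm6083, at r of 0.83, 0.87 and 0.84. Whether reads were shared between Gm6083 and Dppa5a was not tested. Dppa5a correlated with Tpm1 at -0.30, -0.31 and -0.33. Nr0b1, a nuclear receptor of naive cells, was the only other naive gene of the 11 tested that passed, at 1.34 ± 0.38. It was found in 31.5%, 23.7% and 31.4% of wells, with at most 19, 16 and 43 UMIs, and it did not pass with another thinning seed, at a depth of 5000 UMIs or without the deepest 5% of wells. Dppa3, also called Stella, was seen in 6.85%, 4.93% and 5.69% of wells, and its highest wells held 8, 36 and 61 UMIs, so that its excess ranged widely over plates (2.43 ± 1.46).

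Core pluripotency genes lay, as a list, near other genes of their level. Of 11 tested 0 passed, and their median excess was -0.05. Pou5f1 had an excess of -0.93 ± 0.23, rank 7427 of 7662 genes, with at most 8, 6 and 5 UMIs in a well. Sox2 had 0.01 ± 0.32, with at most 14, 9 and 23. Ranked by their weakest plate, the leading members were Tdgf1, a Nodal co-receptor, at 0.66 ± 0.30, L1td1 at 0.20 ± 0.31 and Gdf3 at 0.00 ± 0.12. Neither Pou5f1 nor Sox2 reached a correlation of 0.3 or more with any gene on every plate, and at means near 1 UMI counting limits such correlations. The 5 tested formative epiblast genes, among them Dnmt3a, Dnmt3b and Pou3f1, had a median of 0.01 and none passed.

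Mitochondrial transcripts also varied widely. mt-Rnr2 had a mean of 109, 90.3 and 104 UMIs per well, a median of 80, 58 and 74 and highest wells of 622, 717 and 685. Its excess was 4.44 ± 0.24, beside 3.68 ± 0.47 in control wells, where its mean was 64.3, 47.9 and 57.5 UMIs. On the mitochondrial list 8 of 11 tested members passed, beside 49 of 7662 genes in all (0.64%), and the median was 2.10. These 8 are among the abundant genes that shared 1 running median, and the part of their level in the excess was not tested. With a mitochondrial limit of 10% in place of 20%, mt-Co1, mt-Nd2 and mt-Nd5 no longer passed, nor did mt-Nd2 at a depth of 5000 UMIs. mt-Rnr1, the small ribosomal RNA, had an excess of 3.17 ± 0.07. The messenger RNA mt-Cytb had 2.95 ± 0.17, mt-Nd1 3.40 ± 0.72 and mt-Nd4 2.43 ± 0.33. With mt-Rnr2, 9 genes correlated at 0.3 or more on every plate, of which 7 were mitochondrial and the others were Gm42418 (0.33, 0.53 and 0.37) and Lrp5. Krt18 and mt-Rnr2 gave 0.04, 0.06 and 0.11. In a principal component analysis of each plate, Krt18, Krt8 and mt-Rnr2 were among the leading genes at the same end of the first component on plates 1 and 3. On plate 2 mt-Rnr2 led an end of the first component and the keratins led an end of the second. The first component held only 2.63%, 2.95% and 2.67% of the variance on plates 1 to 3. Its r with the mitochondrial share of the well was 0.60, -0.74 and 0.61, where the sign is arbitrary. The part of well quality in the mitochondrial counts, which the 20% limit cuts off at the top, was not tested. Malat1 reached a correlation of 0.3 with no gene on every plate.

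Cell cycle genes varied moderately and none passed. The median excess was 0.13 for 20 S phase genes and 0.13 for 24 G2 and mitosis genes. Mki67, a mark of cycling cells, had the highest, 0.90 ± 0.07, beside 0.47 ± 0.07 in control wells. That difference of 0.43 ± 0.13 (SE) had a limma adjusted p of 0.941. Mki67 was found in 67.9%, 63.5% and 53.9% of wells with at most 30, 28 and 31 UMIs. Cenpf, a kinetochore protein, had 0.82 ± 0.20 and Hmmr, a spindle protein, 0.84 ± 0.28. Mcm2 and Mcm4, subunits of the replicative helicase, had 0.51 ± 0.17 and 0.58 ± 0.45.

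Subunits of the MLL and related COMPASS complexes gave 0 of 17 tested genes past the limit, and their median was 0.17. Dpy30, a core subunit, had the highest excess, 0.71 ± 0.09, with a mean of 9.16, 8.77 and 6.17 UMIs and at most 43, 37 and 47. Kmt2a itself had 0.28 ± 0.23 (control 0.40 ± 0.17) and at most 8, 16 and 15 UMIs in a well. Kmt2c, another methyltransferase of the family, had 0.36 ± 0.26, and Ncoa6 had 0.41 ± 0.13.

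Of 4 stress lists 1 had genes past the limit. In the amino acid and unfolded protein list 2 of 15 passed, beside 49 of 7662 genes in all (0.64%). One was Nupr1, a stress-induced chromatin protein, at 1.82 ± 0.50 with highest wells of 52, 51 and 39 UMIs and a median of 1 on each plate, and it did not pass at a depth of 5000 UMIs. The other was Hspa5, the endoplasmic reticulum chaperone BiP, at 2.08 ± 1.35, with highest wells of 59, 77 and 371 UMIs. Without the highest well of each plate its mean excess was 1.08 and it no longer passed, nor did it at 5000 UMIs or with a mitochondrial limit of 10%. The median of that list was 0.15. None of 9 heat shock genes passed (median 0.11), although Hsp90aa1 had 1.24 ± 0.37. None of 13 p53 targets passed (median -0.02), with Cdkn1a, a cell cycle inhibitor, highest at 0.78 ± 0.06 and Mdm2 at 0.50 ± 0.05. None of 11 immediate early genes passed (median 0.11), Fos having 0.59 ± 0.05. The cholesterol synthesis list had 0 of 17 and a median of -0.05, and the glycolysis and hypoxia list 0 of 16 and 0.18, with Slc2a3, a glucose transporter, at 0.62 ± 0.12. The ubiquitous comparison list had 0 of 15 and -0.19. The vitamin D list had 0 of 3 and 0.10, and the neural list 0 of 3 and 0.44, with Nes at 0.92 ± 0.17. The 2-cell-like, fibroblast, mesoderm and blood lists had no member above the level filter.

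Whole-well measures of spread were also compared with the control wells on the same plates. The SD of log10 UMIs per well was 0.533, 0.588 and 0.632 in deleted wells and 0.509, 0.520 and 0.530 in control wells. The difference was 0.0648 ± 0.0391 (SD, n = 3 plates), higher on 3 of 3 plates. The membership rule asks for at least 1000 genes and so bears on this spread. It left out 0, 17 and 26 deleted wells and 2, 14 and 10 control wells on plates 1 to 3. The SD of log10 UMIs is therefore given as description with no test. In inhibited wells that SD was 0.553, 0.524 and 0.593. The interquartile range of the mitochondrial share was 2.20, 1.74 and 2.46 percentage points in deleted wells and 1.54, 1.39 and 1.52 in control wells, a difference of 0.651 ± 0.293 (SD over plates). The membership rule cuts this share at 20%, so it is given as description with no test, and with a limit of 10% the difference was 0.366. Inhibited wells averaged 1.66 ± 0.221. The median Spearman correlation between wells of a plate was 0.397, 0.398 and 0.386 in deleted wells and 0.410, 0.414 and 0.418 in control wells. It was lower in deleted wells on 3 of 3 plates (exact sign permutation p of 0.25, two-sided, n = 3 plates), the smallest p that 3 plates allow. Inhibited wells had a median correlation of 0.409, 0.412 and 0.394. Depth moved beside these values. Spike-in RNA, of which deleted wells held a median of 177, 270 and 131 UMIs, correlated with gene UMIs at r of 0.63, 0.60 and 0.69 on log10 scales. The technical part of the spread of UMIs was not tested. In deleted wells the SD of the log10 ratio of gene to spike-in UMIs was 0.542, 0.584 and 0.555, beside 0.515, 0.541 and 0.505 in control wells. The cell loading layout also differed, with deleted cells dispensed from 2 source wells on plates 1 and 2 and from 3 on plate 3.

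Gene by gene, variability excess was compared between deleted and control wells over the 9 libraries with limma, with the plate as a block, and 1 of 7662 genes passed an adjusted p of 0.05 (0.0131%). That gene was Vps72 (chromosome 3, 95111022 to 95123051, plus strand), a subunit of complexes that exchange histone H2A variants. Its highest deleted wells held 146, 56 and 38 UMIs on plates 1 to 3, beside 80, 27 and 8 in control wells and 56, 19 and 7 in inhibited wells. Its mean was higher in deleted wells on each plate, at 0.798, 0.648 and 0.675 against 0.751, 0.512 and 0.297 in control wells. The difference in mean was not tested. In deleted wells the 3 highest wells of each plate held 71.3%, 44.7% and 35.3% of the Vps72 UMIs. The excess was higher by 1.57 ± 0.20 (SE, log2) than in control wells (limma adjusted p of 0.0437) and by 2.29 ± 0.20 than in inhibited wells (limma adjusted p of 0.000923), where it was again the only gene of 7662 to pass (0.0131%). Both comparisons use the same deleted libraries. Without the highest well of each library the Vps72 differences were 0.55 (adjusted p of 0.934) and 1.13 (adjusted p of 0.474), and with no replicate block they were called in neither comparison (adjusted p of 0.968 and 0.930). Leaving out any 1 of the 3 plates ended the call against control, and leaving out plate 2 or plate 3 ended the call against inhibited wells. Before adjustment, p was below 0.05 for 192 genes with more variability than in control wells and for 192 with less.

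**Figure D5:**
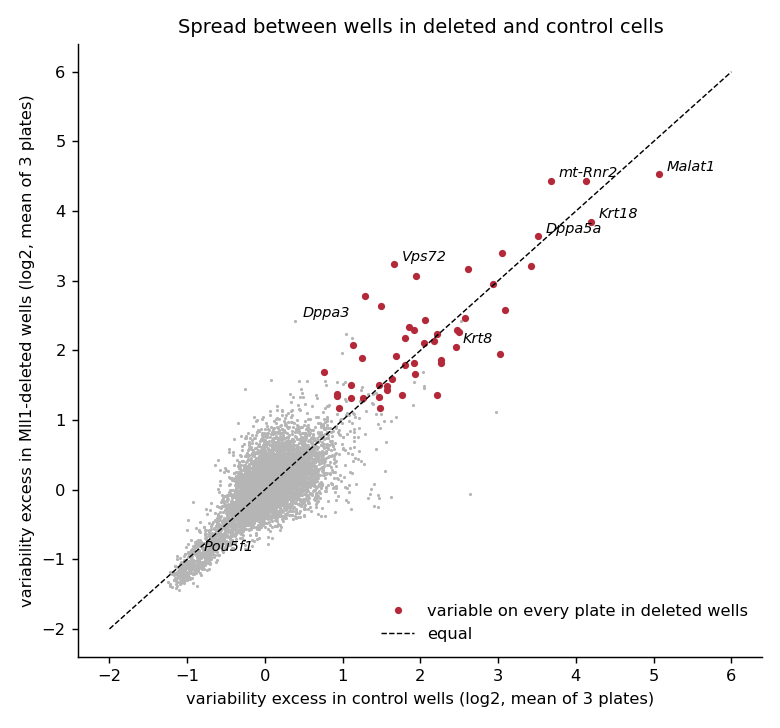
Mean variability excess over 3 plates in deleted wells (vertical axis, log2) against control wells (horizontal axis, log2), 1 point per gene, with the genes variable on every plate in deleted wells in red and a dashed line of equal values. Krt18, Dppa5a, Malat1 and mt-Rnr2 lie high on both axes, and Vps72 lies above the line, at 3.24 against 1.67.

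Vps72 was the only one of the 49 variable genes that passed this test. The Krt18 excess of 3.84 stood beside 4.20 in control wells, and that of Krt8 of 2.05 beside 2.45. For mt-Rnr2 the difference was 0.76 ± 0.20. Its mean was 109, 90.3 and 104 UMIs in deleted wells and 64.3, 47.9 and 57.5 in control wells. The part of this shift in level in the difference was not tested. The mt-Rnr2 level correlated with the mitochondrial share of the well at r of 0.79, 0.82 and 0.80 on plates 1 to 3. The membership rule cuts that share, so the mt-Rnr2 difference is given as description with no p. For Malat1 the difference was -0.54 ± 0.16. Dppa3 had a difference of 2.03 ± 0.43 and a limma adjusted p of 0.941, its high wells lying on plates 2 and 3. A p above the threshold does not show that the variability was equal.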

How the data were processed

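The deposited values were UMI counts, whole-number counts per gene and well, 1 table per plate. Per the submitters' processing notes the tools included STAR 2.5.2b, featureCounts and Subread 1.4.6-p1 with the build mm10; their order and settings are not given in the sources used here. Cell types came from the deposited plate reports. Spike-in sequences (0.646 to 0.752% of UMIs) were left out of totals. Of 29267 identifiers, 28641 matched a GENCODE M21 name. Wells were filtered as stated and thinned without replacement to 10000 UMIs. Wells were never treated as replicates; a library is the wells of 1 type on 1 plate. No doublet caller was run. Variability excess was compared over 9 libraries with limma 3.58.1 (R 4.3.3, eBayes with trend, plate as block, Benjamini-Hochberg adjustment over 7662 genes); the rest used Python 3.11.15, numpy 2.4.6, scipy 1.17.1 and pandas 2.3.3, and the scripts were tested on simulated data. Plates pair the libraries because the labels put every type on each plate; deviations of same-plate libraries correlated at 0.0065 to 0.068 (9 pairs) and of different plates at -0.045 to 0.0094 (18 pairs). Intervals are exact binomial (Clopper-Pearson) at 95% and cover counting error only.

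Named genes were Kmt2a, the 4 markers, the 15 genes of highest and 5 of lowest excess by their weakest plate, up to 3 leading genes in each of 26 lists, the genes past adjusted p 0.05 in each comparison or else the 3 with the smallest p, and the closest partner of a named gene. Genes outside this rule, such as the other correlated genes, those at the limit and those of single high wells, were named after their values were seen. The members and lists were chosen with earlier results of these data known. Alternatives were another seed, depths of 5000 and 20000 UMIs, no filter on low values, a mitochondrial limit of 10%, no deepest 5% of wells, no highest well, no block, each plate left out and folds of 1.5 and 4; variation within source wells was added after seeing the data.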

Additional observations from a re-analysis of the deposited data

How the results depend on the processing

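Against the main count of 49, genes variable on every plate numbered 32 at 5000 UMIs, 80 with no filter on low values, 156 at 1.5-fold and 11 at 4-fold, and 77 to 87 when 1 plate was left out, where only 2 plates had to pass. Of the 49, 45 were shared with another seed, 47 with 20000 UMIs, 30 with 5000, 39 with a 10% mitochondrial limit, 40 without the deepest 5% of wells, 39 without each gene's highest well and 48 within source wells. The deleted against control comparison called 1 gene with the plate as a block and 0 with no replicate block, another seed, 5000 or 20000 UMIs, the 10% limit, no filter, no deepest 5% of wells or no highest well, and 0 to 0 with a plate left out. Deleted against inhibited called 1 gene, and 0 at 5000 UMIs or with no replicate block, 2 without the deepest 5% of wells or without the highest well, and 0 to 1 with a plate left out; the 2 were Vps72 and Dqx1, then B930036N10Rik and Dqx1. The cause was not tested. The spread measures kept their direction in the alternatives that could move them; depth and seed bear only on the correlation between wells. Of 924 alternative values of excess for named genes, 800 moved by less than 1 SD over plates, 124 moved further and 0 changed sign once past the limit. The 800 include all values with a plate left out (84 for each plate). Leaving out a plate cannot move the mean by 1 SD over the same plates, so those values say nothing about stability. Among the other settings, the largest number moved further at 5000 UMIs (37, with 47 that did not). The smallest number did so within source wells (0, with 84 that did not). Depth limits what can be seen: 301 deleted wells fell under 10000 UMIs, and genes under 0.1 UMIs per well were not tested.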

Other observations

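Single wells held most of the counts of the 2-cell-like list on each plate. Genes of the 2-cell-like state, a rare condition of stem cells that resembles the early cleavage embryo, were found in 6 of 336, 8 of 304 and 7 of 369 deleted wells (1.79%, 2.63% and 1.90%, with exact 95% intervals of 0.658 to 3.85, 1.14 to 5.12 and 0.766 to 3.87). One well of plate 3 held 357 UMIs of the 15 listed genes found in the files, which was 97.3% of that plate's total for the list. Its Zscan4d count was 128, Zscan4f 69, Zscan4b 56 and Zscan4c 48, and 11 listed genes were seen in it. The same well held 2 UMIs of Pou5f1, 0 of Sox2, 0 of Krt18 and 19 of Dppa5a, at 77374 UMIs before thinning and a mitochondrial share of 7.91%. On plate 1 one well held 65 UMIs of the list, 87.8% of the total, and on plate 2 one held 15, or 51.7%. In control wells at least 1 UMI of the list was found in 5 of 527, 11 of 471 and 8 of 286 wells (0.949%, 2.34% and 2.80%). The highest control wells held 6, 194 and 1. Zscan4 and Usp17l genes are near-identical copies, so the split between them is uncertain.

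Primitive endoderm and basement membrane genes had a median excess of 0.64 over 7 tested genes, beside 0.05 over all genes, and 0 of the 7 passed. Col4a1, a chain of basement membrane collagen, had 1.46 ± 0.78 (SD, n = 3 plates), Lama1 0.88 ± 0.56 and Sparc 0.64 ± 0.34. One plate 2 well held 107 UMIs of the list, with 41 of Sparc, 34 of Col4a1, 28 of Col4a2 and 36 of Krt18. Col4a1 correlated with Krt18 at r of 0.47, 0.33 and 0.27 over the wells of the 3 plates.

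Of 13 imprinted genes tested 2 passed, beside 49 of 7662 genes in all (0.64%), with a list median of 0.52. Phlda2 had an excess of 1.33 ± 0.22 with highest wells of 36, 27 and 28 UMIs, H19 had 1.36 ± 0.34 with 37, 31 and 31, and Peg3 had 0.72 ± 0.07. H19 and Phlda2 did not pass at a depth of 5000 UMIs, nor Phlda2 without the deepest 5% of wells. Of 7 germline and meiosis genes 0 passed, with a median of 0.27. Rhox5, an X-linked homeobox gene, was found in 6.85%, 2.63% and 5.96% of wells and reached 27 UMIs in 1 well of plate 2. Mt1, a metallothionein named after its values were seen, correlated with Mt2 at 0.61, 0.66 and 0.50 and with Krt18 at -0.45, -0.47 and -0.30.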
